A study of Homo sapiens with 12 samples.

Results

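The genes described here are 9 transcriptional targets of p53: CDKN1A, MDM2, ZMAT3, DDB2, BBC3, SESN1, FDXR, RRM2B and TP53INP1. They were taken by name from the annotation of the array rows. Of the 9 symbols, 8 had a row of their own among the 32321 rows of the table, each exactly 1, and FDXR was not analysed here. The gene that encodes p53 is not analysed here either, so every value below is that of a target or partner of p53.

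Expression was measured on 12 arrays of the Hodgkin lymphoma lines L-428 and L-1236. Both are long-established lines grown from patients' tumour cells, and Hodgkin tumour cells arise from B cells that switched off most B-cell genes. The 4 groups of 3 arrays were L-428 tGFP/EBF1, L-428 tGFP, L-1236 tGFP/EBF1 and L-1236 tGFP. The tGFP/EBF1 cells carried a vector for the green fluorescent protein tGFP joined by an IRES to EBF1, a transcription factor needed for early B-cell development, and the tGFP cells carried tGFP only. All groups were transduced, kept in culture for 8 days and sorted for tGFP, so no untransduced cells were compared. The study describes the 3 samples of a group as independent, and the number of arrays limits the precision. The sources used here name no promoter for the vector and no DNA-damaging treatment.

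In cells under stress, p53 is released from its inhibitor and binds DNA to switch on a set of genes. Some of them stop the cell cycle, some repair DNA or supply its building blocks, some promote cell death, and MDM2 closes the loop by marking p53 for degradation. Several of these genes also answer to other transcription factors, so their levels are not a readout of p53 alone.

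All values are signals on the log2 scale. Array medians lay between 7.19 and 7.31, and replicates of a group correlated with Pearson's r between 0.992 and 0.997 over all rows. Replicate 3 of L-428 tGFP and replicate 1 of L-1236 tGFP/EBF1 stood apart in spread from the other arrays of their own line. Their interquartile ranges were 2.285 and 2.168. The other arrays had 2.415 to 2.488 in L-428 and 2.258 to 2.314 in L-1236. Calls or directions of members that change without them are named beside the result, and the further lists are given mostly as counts. EBF1 had no row of its own and was read from the first row that lists it beside another symbol. The signal of that row reached 12.96 ± 0.027 in L-428 tGFP/EBF1 and 8.45 ± 0.16 in L-428 tGFP (SD, n = 3 each). It reached 13.15 ± 0.11 in L-1236 tGFP/EBF1 and 7.17 ± 0.057 in L-1236 tGFP (SD, n = 3 each). All 6 markers of Hodgkin lines lay above the array medians in every group. Of 5 T-cell markers, 5 lay below the array medians in every group, as did 4 of 5 myeloid, 4 of 5 stromal and 2 of 2 measured erythroid markers. Of 4 measured B-cell markers, MS4A1, CD79A and CD79B lay below the medians in L-428 and in L-1236 tGFP, and PAX5 lay above them in all groups. In L-1236 tGFP/EBF1, MS4A1 and CD79B lay below the medians.

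Short promoter stretches are shown for the members with an array row whose windows held the DNA core that EBF proteins bind or the consensus of p53. Windows of RefSeq (GRCh38.p14), running from 250 bases before a transcription start to 50 after it, were given for 7 of the 9 genes, 15 windows in all. The EBF core was searched as CCCNNGGG, which reads alike on both strands. Of all 35116 windows, 19.1% hold it, and 4 of the 15 did. The p53 consensus consists of paired copies of a short motif that also reads alike on both strands. At least 1 copy stands in 6.63% of all windows and in 3 of the 15, 1 of them a window of FDXR that is not shown. In the stretches below, each 5′ to 3′ on the gene's strand, capitals mark the motif.
CDKN1A, EBF core, chr6:36678590-36678619, plus strand: aggagcctgggCCCCGGGGagggcggtccc
MDM2, EBF core, chr12:68808018-68808047, plus strand: agcccgccgcgCCCGCGGGgcgacaccccc
MDM2, EBF core, chr12:68808151-68808180, plus strand: cccgcgcgctcCCCTCGGGcggtagggggc
SESN1, EBF core, chr6:109009162-109009191, minus strand: ccctcctgcgcCCCTCGGGggaaggggttg
DDB2, 2 copies of the p53 motif, chr11:47214975-47215004, plus strand: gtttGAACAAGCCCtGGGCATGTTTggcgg
SESN1, 1 copy of the p53 motif, chr6:109009018-109009047, minus strand: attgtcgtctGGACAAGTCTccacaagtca
The DDB2 stretch holds its 2 copies 1 base apart, the first starting at base 6 of the transcript, and 10 of the 35116 windows (0.0285%) hold such a pair within 13 bases. Neither motif was found in the 2 windows of ZMAT3 or in the window of BBC3. These are matches of letters, and binding was not measured here.

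The first comparison asked which target genes changed in L-428 when EBF1 was added. ZMAT3, which encodes a zinc-finger RNA-binding protein that p53 uses to restrain growth, was the member that rose. It measured 9.04, 9.05 and 9.03 in L-428 tGFP/EBF1, against 8.53, 8.47 and 8.25 in L-428 tGFP. Every array with EBF1 lay above every control array, and the lowest control was replicate 3, one of the arrays that stand apart. The rise was 0.62 on the log2 scale, or 1.54-fold (95% interval 0.47 to 0.77; limma, adjusted p = 2.94e-05). Without replicate 3 of L-428 tGFP it was 0.54 (limma, adjusted p = 8.42e-05).

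Of the 8 members, 1 rose and 0 fell in L-428, where 2.62% of all 20546 tested rows rose and 1.72% fell. The threshold for a pass was an adjusted p of 0.05, and "rose" and "fell" are used of rows that passed it. None of the 8 also reached the study's 2-fold limit, as 0.0973% of all rows did (limma). Apart from ZMAT3, the members had negative changes in L-428 that did not pass, and the median over the 8 was -0.0475, against 0.00372 over all rows.

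**Figure D1:**
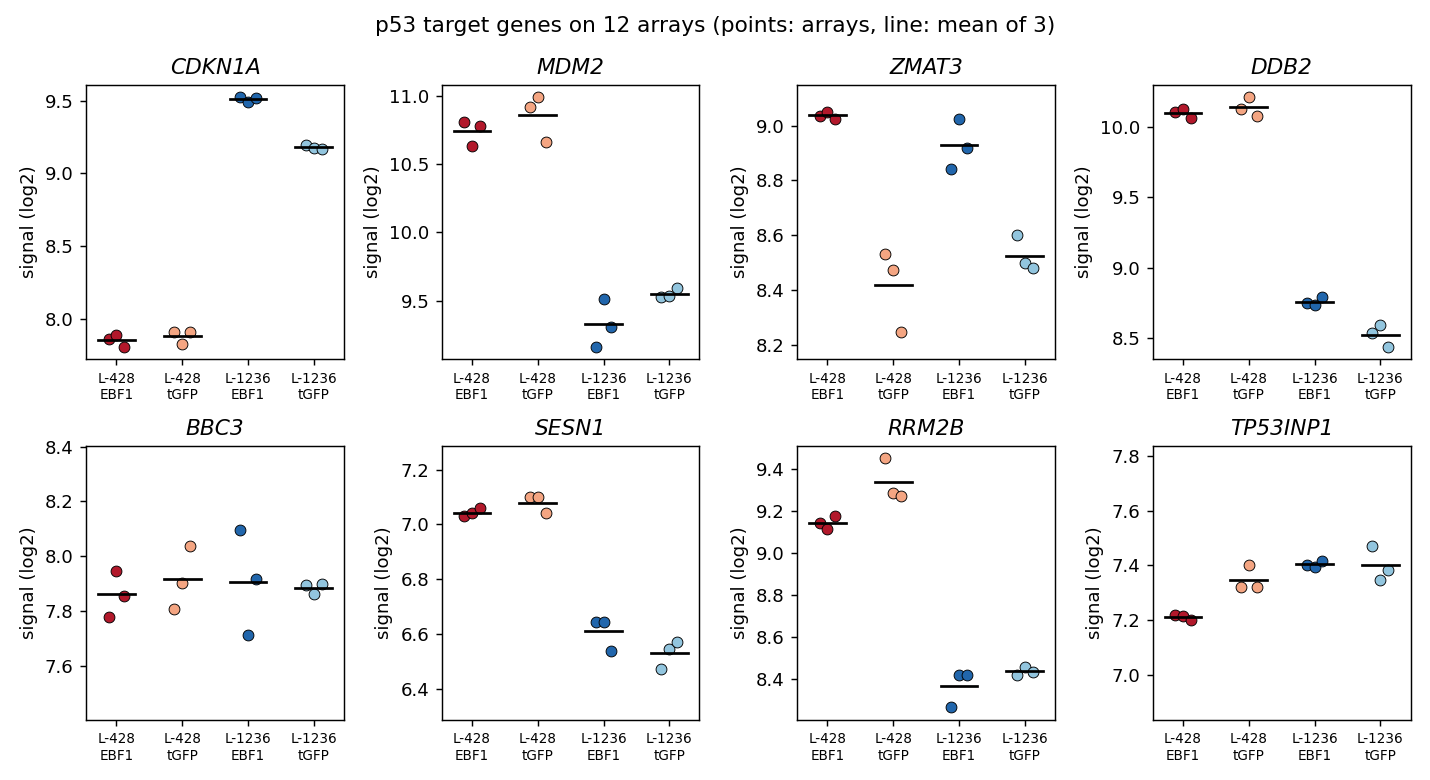
Signal (log2) of the 8 measured p53 target genes on each of 12 arrays, with 1 panel per gene spanning at least 1 log2 unit; points are single arrays and lines are means of 3. The ZMAT3 arrays with EBF1 lie above the controls of both lines, CDKN1A separates the lines by more than 1 log2 unit, and the BBC3 groups overlap.

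CDKN1A encodes p21, the inhibitor of cyclin-dependent kinases through which p53 halts the cell cycle. Its signal was 7.86, 7.89 and 7.81 in L-428 tGFP/EBF1 and 7.91, 7.83 and 7.91 in L-428 tGFP. The groups overlapped, and the change of -0.029 had a 95% interval from -0.14 to 0.086 (limma, adjusted p = 0.937). MDM2, the ubiquitin ligase that inhibits p53, measured 10.81, 10.63 and 10.78 in L-428 tGFP/EBF1, against 10.92, 10.99 and 10.66 in L-428 tGFP. Replicate 3 of the controls lay among the EBF1 arrays, and the change of -0.12 did not pass (95% interval -0.30 to 0.070; limma, adjusted p = 0.693). Without that array it was -0.22 (limma, adjusted p = 0.165), and it passed under array weights, which give less reliable arrays less say (-0.19; limma, adjusted p = 0.0487).

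Among the repair genes, DDB2, the damage-recognition subunit of nucleotide excision repair, had 10.11, 10.12 and 10.06 in L-428 tGFP/EBF1 and 10.13, 10.21 and 10.08 in L-428 tGFP. These groups overlapped (change -0.040; limma, adjusted p = 0.914). RRM2B, the ribonucleotide reductase subunit that p53 induces to supply nucleotides for repair, had 9.14, 9.11 and 9.18 in L-428 tGFP/EBF1 and 9.45, 9.29 and 9.27 in L-428 tGFP. Every EBF1 array lay below every control array. The change was -0.19 with a 95% interval from -0.33 to -0.059, and it missed the threshold after adjustment over all rows (limma, adjusted p = 0.11). It passed after quantile normalization (-0.21, adjusted p = 0.017), with array weights (-0.23, adjusted p = 0.0049) and without both arrays that stand apart (-0.23, adjusted p = 0.0171). More of all rows passed under each of these settings as well.

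The members tied to cell death and to stress metabolism had no change that passed in L-428. BBC3, which encodes the pro-apoptotic BCL2-family protein PUMA, had 7.78, 7.95 and 7.86 in L-428 tGFP/EBF1 and 7.81, 7.90 and 8.04 in L-428 tGFP (change -0.055, 95% interval -0.23 to 0.12). The groups overlapped, and without replicate 3 of L-428 tGFP the change was 0.0062. SESN1, a sestrin that restrains mTORC1 signalling, had 7.03, 7.04 and 7.06 in L-428 tGFP/EBF1 and 7.10, 7.10 and 7.04 in L-428 tGFP (change -0.037, 95% interval -0.16 to 0.083). TP53INP1, a stress-induced protein that promotes p53 phosphorylation and autophagy, had 7.22, 7.22 and 7.20 in L-428 tGFP/EBF1 and 7.32, 7.40 and 7.32 in L-428 tGFP. Its EBF1 arrays all lay below the controls, yet the change of -0.14 did not pass (95% interval -0.25 to -0.018; limma, adjusted p = 0.239). It passed with array weights (-0.14; limma, adjusted p = 0.0472), under which more of all rows passed as well. SESN1 and TP53INP1 had signals near the array medians, and no background level was available to set beside them.

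The same question in L-1236 gave 3 members that rose and 0 that fell, where 3.69% of all rows rose and 5.95% fell. The risers were ZMAT3, CDKN1A and DDB2. None of the 8 reached 2-fold, as 0.146% of all rows did. The median over the 8 was 0.0516, against 0.00798 over all rows. Some markers of B cells and other cell types rose in L-1236 as well: the B-cell genes CD79A by 1.18 (limma, adjusted p = 2.75e-10) and CD79B by 0.26 (adjusted p = 0.0123), the T-cell gene CD3D by 0.32 (adjusted p = 0.00271) and the myeloid gene CSF1R by 0.36 (adjusted p = 0.00107). CD3D stayed below the array medians, at 6.50 in L-1236 tGFP/EBF1 and 6.18 in L-1236 tGFP. The other 4 T-cell, 4 myeloid and 2 B-cell markers measured did not pass, and in L-428 CD79A alone of all these markers rose (0.23; limma, adjusted p = 0.0346). Of the 6 Hodgkin markers, TNFRSF8 rose by 0.51 (limma, adjusted p = 6.54e-05) and FUT4 fell by 0.22 (adjusted p = 0.0349) in L-1236. In L-428, 0 of the 6 passed. The part of all these markers in the results was not tested. In bulk RNA, a change in the share of cells with a high level and a change in RNA per cell cannot be told apart.

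ZMAT3 had 8.84, 9.02 and 8.92 in L-1236 tGFP/EBF1 and 8.60, 8.50 and 8.48 in L-1236 tGFP. All EBF1 arrays lay above all controls, as in L-428, and the rise was 0.40 or 1.32-fold (95% interval 0.25 to 0.55; limma, adjusted p = 0.00106). Without replicate 1 of L-1236 tGFP/EBF1 it was 0.45 (limma, adjusted p = 0.00096). The difference between the rises of the lines, L-428 minus L-1236, was 0.22 with a 95% interval from 0.0024 to 0.43 and did not pass (limma, adjusted p = 0.291).

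CDKN1A had 9.52, 9.49 and 9.52 in L-1236 tGFP/EBF1 and 9.19, 9.18 and 9.17 in L-1236 tGFP. The replicates of each group lay within a few hundredths of each other and the groups were well apart. The rise was 0.33, or 1.26-fold (95% interval 0.21 to 0.44; limma, adjusted p = 0.000478). DDB2 had 8.75, 8.74 and 8.80 in L-1236 tGFP/EBF1 and 8.54, 8.59 and 8.44 in L-1236 tGFP. The EBF1 arrays all lay higher, and the rise was 0.23 or 1.18-fold (95% interval 0.11 to 0.36; limma, adjusted p = 0.0155). The DDB2 call was lost without replicate 3 of L-1236 tGFP (0.19; limma, adjusted p = 0.107) or without replicate 3 of L-1236 tGFP/EBF1 (0.22; limma, adjusted p = 0.0765).

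MDM2 ran the other way in L-1236. It had 9.17, 9.52 and 9.31 in L-1236 tGFP/EBF1 and 9.53, 9.54 and 9.59 in L-1236 tGFP. All EBF1 arrays lay below all controls, the nearest by about a hundredth, and the change of -0.22 did not pass (95% interval -0.41 to -0.035; limma, adjusted p = 0.144). Its size depended on the arrays, with -0.31 and a pass without replicate 2 of L-1236 tGFP/EBF1 (limma, adjusted p = 0.0285), and -0.14 without replicate 1, one of the arrays that stand apart (limma, adjusted p = 0.229 without both such arrays). It also passed after quantile normalization (-0.19, adjusted p = 0.0342) and with array weights (-0.24, adjusted p = 0.000126).

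The other 4 members showed no called change in L-1236. BBC3 had 8.10, 7.71 and 7.92 in L-1236 tGFP/EBF1 and 7.89, 7.86 and 7.90 in L-1236 tGFP, so the EBF1 arrays lay on both sides of the controls (change 0.023, 95% interval -0.15 to 0.20). Without replicate 1 of L-1236 tGFP/EBF1 the BBC3 change was -0.071. SESN1 had 6.65, 6.65 and 6.54 in L-1236 tGFP/EBF1 and 6.47, 6.54 and 6.57 in L-1236 tGFP (95% interval -0.039 to 0.20). RRM2B had 8.26, 8.42 and 8.42 in L-1236 tGFP/EBF1 and 8.42, 8.46 and 8.43 in L-1236 tGFP (change -0.069, 95% interval -0.20 to 0.065), and without the same array the change was -0.018. TP53INP1 had 7.40, 7.39 and 7.42 in L-1236 tGFP/EBF1 and 7.47, 7.35 and 7.38 in L-1236 tGFP (95% interval -0.11 to 0.12). In each of these 4 genes the groups overlapped.

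Whether the effect of EBF1 differed between the lines was tested directly. Of the 8 members, 0 had a higher effect in L-428 and 1 a lower one, where 3.38% and 1.79% of all rows did. The 1 was CDKN1A, whose effect was -0.029 in L-428 and 0.33 in L-1236, a difference of -0.36 (95% interval -0.52 to -0.20; limma, adjusted p = 0.00909). For DDB2 the effects were -0.040 in L-428 and 0.23 in L-1236, and the difference of -0.27 did not pass (95% interval -0.45 to -0.097; limma, adjusted p = 0.0707). It passed after quantile normalization (-0.34, adjusted p = 0.0163), with array weights (-0.32, adjusted p = 0.000914), without replicate 3 of L-428 tGFP (-0.31, adjusted p = 0.028) and without both arrays that stand apart (-0.31, adjusted p = 0.0236). With array weights the differences of RRM2B (-0.21, adjusted p = 0.0222) and TP53INP1 (-0.17, adjusted p = 0.0285) passed as well. Many more of all rows passed for the difference under that setting. MDM2, which had negative changes in both lines, showed a difference of 0.10 (95% interval -0.16 to 0.37), which was -0.076 without both arrays that stand apart. The BBC3 difference was -0.078 and became 0.077 without both, and neither passed.

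**Figure D2:**
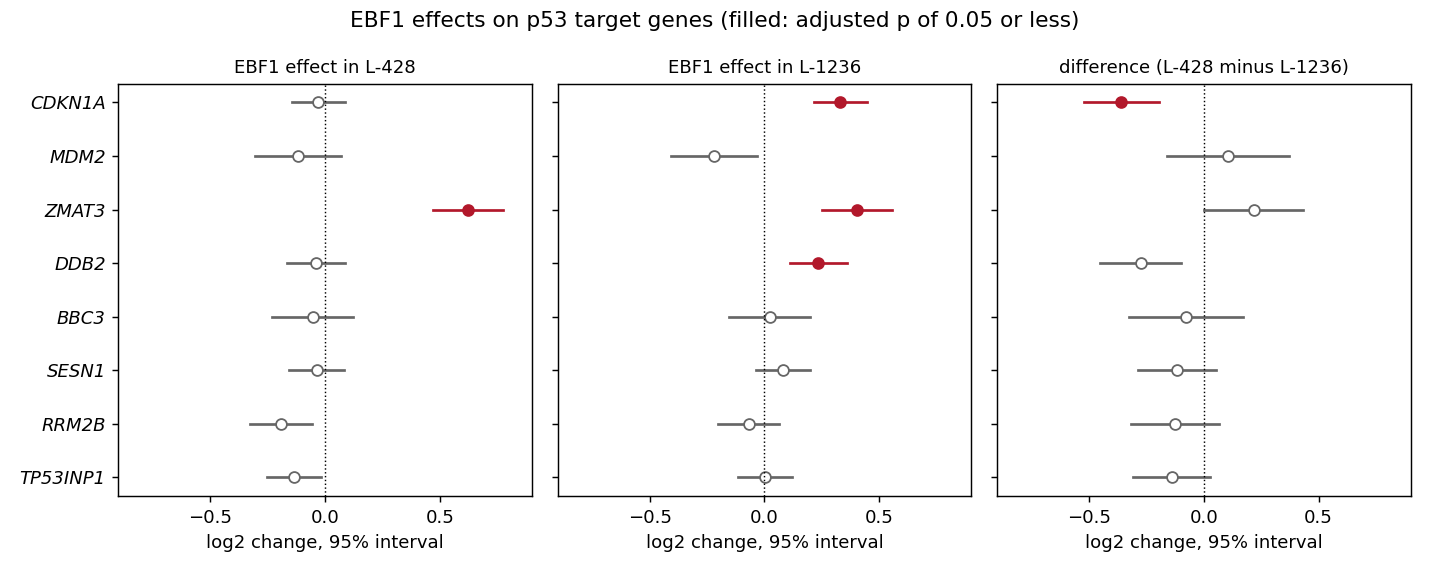
Log2 change with 95% interval (limma) of 8 p53 target genes for EBF1 in L-428, for EBF1 in L-1236 and for the difference of the effects, L-428 minus L-1236; filled points passed an adjusted p of 0.05. ZMAT3 is filled in both lines, CDKN1A and DDB2 in L-1236, and CDKN1A in the difference.

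The control cells of the lines were compared to show the level from which each gene started. Of the 8 members, 4 were higher and 1 was lower in L-428 tGFP than in L-1236 tGFP, in a comparison where 26.1% of all rows were higher and 21.7% lower. Of these 5, 3 differed by 2-fold or more, as 7.2% of all rows did. Line, culture and time of transduction cannot be told apart in this comparison.

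CDKN1A was the member that was lower in L-428, with 7.88 ± 0.047 in L-428 tGFP and 9.18 ± 0.013 in L-1236 tGFP (SD, n = 3 each), a 2.46-fold difference (limma, adjusted p = 2.62e-13). MDM2 ran opposite, with 10.86 ± 0.17 in L-428 tGFP and 9.55 ± 0.035 in L-1236 tGFP (SD, n = 3 each), or 2.47-fold higher in L-428 (limma, adjusted p = 3.26e-10). DDB2 was 3.06-fold higher in L-428, with 10.14 ± 0.066 in L-428 tGFP and 8.53 ± 0.077 in L-1236 tGFP (SD, n = 3 each; limma, adjusted p = 4.08e-14). None of the 3 had overlapping control arrays. Without both arrays that stand apart the log2 differences were -1.31 for CDKN1A, 1.40 for MDM2 and 1.64 for DDB2.

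RRM2B was 1.87-fold higher in L-428 tGFP than in L-1236 tGFP (9.34 ± 0.10 and 8.44 ± 0.020; limma, adjusted p = 5.75e-10). SESN1 was 1.46-fold higher (7.08 ± 0.035 and 6.53 ± 0.050; limma, adjusted p = 1.09e-07). Both SESN1 levels lay below the array medians, and 38% of rows were dimmer than SESN1 on average. ZMAT3 was at 8.42 ± 0.15 in L-428 tGFP and 8.53 ± 0.064 in L-1236 tGFP, with overlapping arrays (limma, adjusted p = 0.25). After quantile normalization its difference passed (-0.16, adjusted p = 0.0243). It was -0.024 without both arrays that stand apart. BBC3 and TP53INP1 overlapped too (limma, adjusted p = 0.811 and adjusted p = 0.508). The BBC3 difference was 0.031 and became -0.030 without both arrays that stand apart.

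Across all 4 groups, CDKN1A ran from L-1236 tGFP/EBF1 over L-1236 tGFP to L-428 tGFP and L-428 tGFP/EBF1, the last 2 of which overlapped. MDM2, DDB2, SESN1 and RRM2B had both L-428 groups above both L-1236 groups. Within L-428, the RRM2B groups did not overlap, while those of MDM2, DDB2 and SESN1 did. ZMAT3 had both EBF1 groups above both control groups, at 9.04 ± 0.012 in L-428 tGFP/EBF1, 8.93 ± 0.090 in L-1236 tGFP/EBF1, 8.42 ± 0.15 in L-428 tGFP and 8.53 ± 0.064 in L-1236 tGFP (SD, n = 3 each).

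A further 33 known p53 targets, of which 32 were measured, were read in the same way. In L-428, 2 of the 32 rose and 1 fell, against 2.62% and 1.72% of all rows, and the median was -0.00111, against 0.00372 over all rows. CD82, a tetraspanin known as a suppressor of metastasis, rose to 9.23 ± 0.013 in L-428 tGFP/EBF1, against 8.52 ± 0.17 in L-428 tGFP (SD, n = 3 each), by 0.72 (limma, adjusted p = 4.28e-06). TIGAR, a phosphatase that lowers glycolytic flux, rose by 0.38 (limma, adjusted p = 0.00506). FUCA1, a lysosomal fucosidase, fell by 0.49 (limma, adjusted p = 0.000317). Without both arrays that stand apart, 2 rose and 5 fell, where 3.42% of all rows rose and 6.23% fell. The further falls were FAS, CCNG1, PMAIP1 and DRAM1, named after their values were seen. After quantile normalization 5 rose and 2 fell, where 4.69% of all rows rose and 3.16% fell.

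In L-1236, 3 of the 32 rose and 2 fell, against 3.69% and 5.95% of all rows, and the median was -0.0151. The count of falls was near the share of all rows. CD82 rose here as well, to 10.44 ± 0.056 in L-1236 tGFP/EBF1, against 9.90 ± 0.022 in L-1236 tGFP (SD, n = 3 each), by 0.54 (limma, adjusted p = 5.24e-05). CYFIP2, a subunit of the actin-regulating WAVE complex, rose by 0.44 (limma, adjusted p = 0.000813). GDF15, a secreted stress cytokine, fell by 0.48 (limma, adjusted p = 0.000335), and DRAM1, a lysosomal regulator of autophagy, fell by 0.30 (limma, adjusted p = 0.0187). The remaining riser, APAF1, the scaffold of the apoptosome, was outside the rule for naming (0.21; limma, adjusted p = 0.0393). Without both arrays that stand apart 3 rose and 4 fell (5.95% and 6.9% of all rows), and after quantile normalization 4 rose and 5 fell (7.03% and 7.88% of all rows).

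Of 14 measured regulators and partners of p53, 0 rose and 0 fell in L-428 (limma), against 2.62% and 1.72% of all rows, and the largest absolute change there was 0.14. In L-1236, 1 rose and 1 fell, where 3.69% of all rows rose and 5.95% fell. ATM, the kinase that activates p53 after double-strand breaks, had 8.46, 8.87 and 8.69 in L-1236 tGFP/EBF1 and 8.22, 8.26 and 8.35 in L-1236 tGFP, a rise of 0.40 (limma, adjusted p = 0.00371). TP73, which encodes the p53 relative p73, fell by 0.24 (limma, adjusted p = 0.0287). Without both arrays that stand apart 0 rose and 1 fell in L-428 (3.42% and 6.23% of all rows). In L-1236, 2 rose and 2 fell without them (5.95% and 6.9% of all rows). After quantile normalization 0 rose and 0 fell in L-428 (4.69% and 3.16% of all rows), and 2 rose and 3 fell in L-1236 (7.03% and 7.88% of all rows).

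The rise of CDKN1A in L-1236 was set beside 12 cell-cycle genes known to be repressed through p21. In L-1236, where CDKN1A rose, 1 of them rose and 0 fell, against 3.69% and 5.95% of all rows, with a median over the 12 of -0.0475. The riser was PLK1, the polo-like mitotic kinase, with 11.69, 11.73 and 11.62 in L-1236 tGFP/EBF1 and 10.87, 10.91 and 10.90 in L-1236 tGFP, a rise of 0.79 (limma, adjusted p = 1.23e-06). In L-428, where the CDKN1A change did not pass, 0 rose and 5 fell, against 2.62% and 1.72% of all rows, with a median over the 12 of -0.20. The checkpoint kinase BUB1 fell by 0.36 and the mitotic kinesin KIF20A by 0.34 (limma, adjusted p = 0.00323 each), and the other falls, outside the rule for naming, were CCNA2 (-0.30), CCNB1 (-0.28) and CDC25C (-0.23). Without both arrays that stand apart 0 rose and 9 fell in L-428 (3.42% and 6.23% of all rows), and after quantile normalization 1 rose and 7 fell (4.69% and 3.16% of all rows). In L-1236, 1 rose and 0 fell without both arrays (5.95% and 6.9% of all rows), with a median of 0.0134. After quantile normalization PLK1 rose and KIF20A fell in L-1236 (7.03% and 7.88% of all rows). Between the control cells, 10 of the 12 were higher and 0 lower in L-428 tGFP than in L-1236 tGFP. Of all rows, 26.1% were higher and 21.7% lower there. The median over the 12 was 0.955, and 5 differed by 2-fold or more, as 7.2% of all rows did. CDKN1A was 2.46-fold lower in L-428 tGFP in the same comparison. A link between these levels was not tested.

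**Figure D3:**
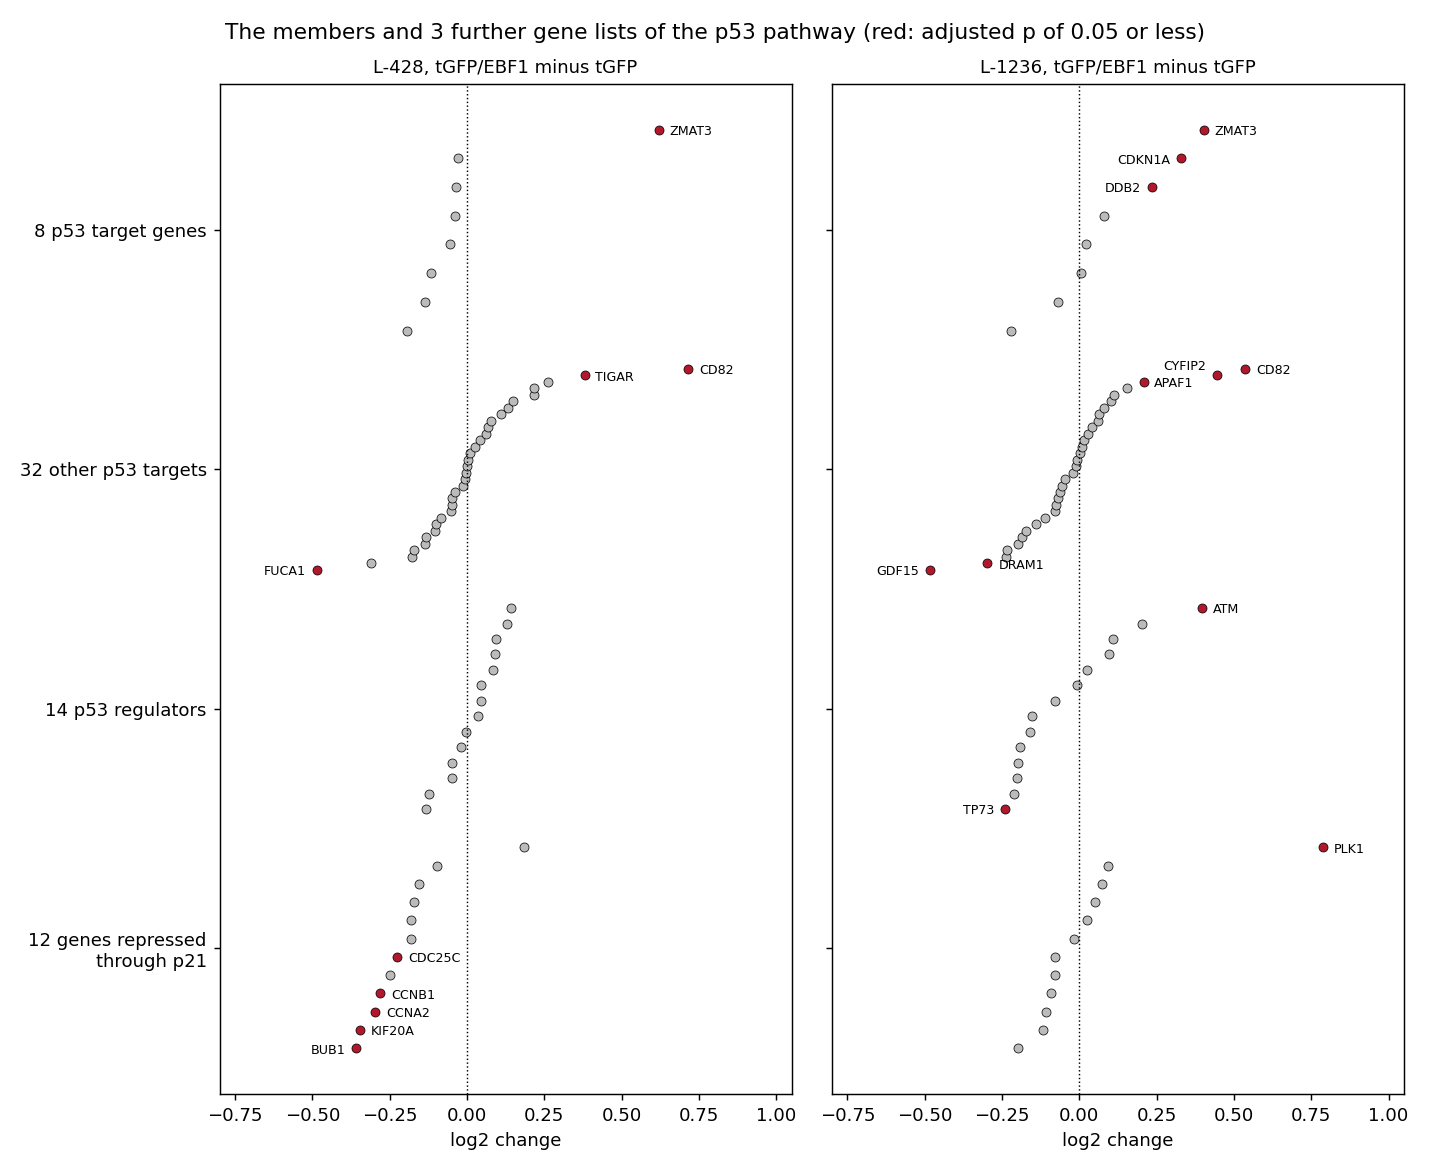
Log2 change (tGFP/EBF1 minus tGFP) in L-428 and L-1236 for the 8 p53 target genes, 32 further targets, 14 p53 regulators and 12 genes repressed through p21, sorted within each list; red points with names passed an adjusted p of 0.05. CD82 and ZMAT3 are the targets that are red on the higher side in both lines, and 5 genes repressed through p21 are red on the lower side in L-428.

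Rows with the most similar course were sought over the 12 arrays after taking off each line's mean, among rows with 1 symbol and a spread of at least 0.2. The arrays of a group share their treatment, so these coefficients are descriptions and carry no p. ZMAT3 ran closest to CD82 (r = 0.99), CTNS (r = 0.987), the lysosomal cystine transporter, and MKNK2 (r = 0.985), a kinase of the translation factor eIF4E. CTNS had changes of 0.80 in L-428 and 0.61 in L-1236, and MKNK2 of 0.99 and 0.57. CDKN1A ran closest to CENPM (r = 0.985), VASN (r = 0.98) and LRRFIP1 (r = 0.978), all with changes within 0.05 of 0 in L-428 and between 0.53 and 0.82 in L-1236. MDM2 ran closest to FZD6 (r = 0.902), SYPL1 (r = 0.883) and SLC25A51 (r = 0.882), whose changes were negative in both lines. Rows were picked for a course like the member's, so the directions of their changes follow from the search. The spreads of CDKN1A (0.125) and MDM2 (0.147) lay below the limit of 0.2, so the rows picked for them vary more widely.

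The calls were recomputed under 22 alternatives for each line. The ZMAT3 rise passed in 22 of 22 in L-428 and in 22 of 22 in L-1236, with values between 0.54 and 0.68 in L-428 and between 0.36 and 0.47 in L-1236. The CDKN1A rise in L-1236 passed in 22 of 22, and its difference between the lines in 21 of 21 (limma, highest adjusted p = 0.0394). The DDB2 rise in L-1236 passed in 20 of 22.

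**Figure D4:**
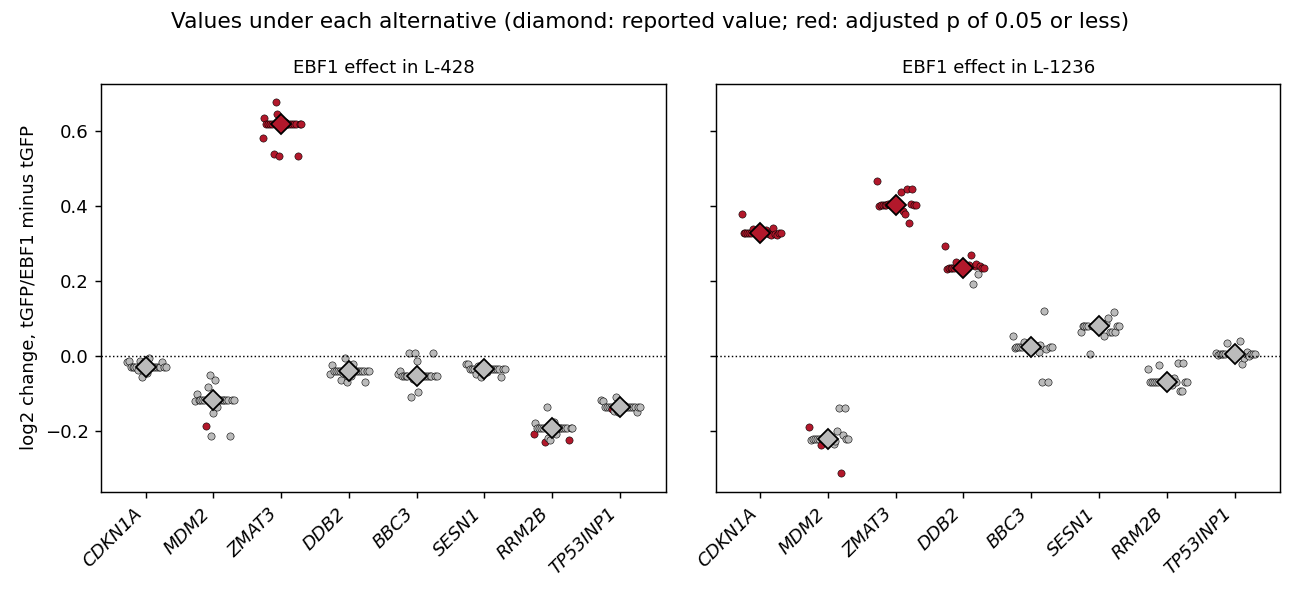
Log2 change (tGFP/EBF1 minus tGFP) of 8 p53 target genes in L-428 and L-1236 under each alternative; diamonds are the reported values, circles the alternatives, and red marks an adjusted p of 0.05 or less. ZMAT3 in both lines and CDKN1A in L-1236 are red throughout, while DDB2 in L-1236 has 2 grey circles.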

How the data were processed

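The authors deposited 1 value per array and row for 12 arrays, on what appears to be a log2 scale: the values reach about 14, and no source used here states the base, the summarization or the normalization. Per the labels' protocols, RNA of sorted cells was amplified and labelled with Ambion and Affymetrix kits. Rows were named from the platform annotation, and the 20546 of 32321 rows with a gene symbol were tested. No further scaling was applied to the deposited log2 values. A linear model with 4 group means was fitted to them with limma 3.58.1 (R 4.3.3), with 8 residual and 9.98 prior degrees of freedom, and Benjamini-Hochberg adjustment ran over all tested rows. Intervals are at 95% and unadjusted. For a gene with several rows the brightest was read, while EBF1 was read from the first row that lists it with another symbol. Named genes were the members, EBF1 and, from each further list, those with the smallest adjusted p (up to 4 targets, 3 regulators and 2 genes repressed through p21 per line), plus the 3 most similar rows of CDKN1A, MDM2 and ZMAT3. Members and lists were chosen with earlier results of these data known. The fit was tested on simulated data. Alternatives were 2 other scalings, 3 choices of rows, another variance model, array weights, a replicate block, fits of each line alone, each array left out and, chosen after seeing the data, leaving out both arrays that stand apart. RefSeq promoter windows were those of GRCh38.p14. Figures were drawn with matplotlib 3.10.9.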

Additional observations from a re-analysis of the deposited data

Results flagged for a closer look

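The 4 lists held 8 measured members, 32 further targets, 14 regulators and 12 genes repressed through p21. By the interaction term of the limma fit, EBF1 effects differed between the lines in 5 of these genes. Of the 5, 2 were higher and 3 lower in L-428, where 3.38% and 1.79% of all rows passed. The count of 2 higher was near the share of all rows. For CDKN1A the difference, L-428 minus L-1236, was -0.36 (adjusted p = 0.00909), with effects of -0.029 in L-428 and 0.33 in L-1236. For FUCA1 it was -0.55 (adjusted p = 0.00277), with effects of -0.49 and 0.061. For TIGAR it was 0.52 (adjusted p = 0.00643), with effects of 0.38 and -0.14. For GDF15 it was 0.43 (adjusted p = 0.0248), with effects of -0.048 and -0.48. GDF15 signal in L-428, at 7.01 ± 0.16 with tGFP/EBF1 and 7.06 ± 0.071 with tGFP (SD, n = 3 each), lay below the array medians. For PLK1 the difference was -1.04 (adjusted p = 9.97e-06), with effects of -0.25, which did not pass, and 0.79. More genes passed under other settings. Without both arrays that stand apart, 2 members, 5 further targets, 1 regulator and 6 genes repressed through p21 passed, where 3.82% of all rows were higher and 5.42% lower. After quantile normalization these counts were 2, 4, 1 and 4, where 5.31% of all rows were higher and 3.76% lower.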

How the results depend on the processing

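Of 684 values of members recomputed under an alternative, 667 kept their side of the threshold, 15 passed where the reported value did not, 2 (both DDB2 in L-1236) no longer passed, and no called value changed sign. A further 16 uncalled values changed sign. The number of members passing in L-428 was 1 and became 2 after quantile normalization, 4 with array weights and 2 without both arrays that stand apart. For the difference of effects it was 1 and became 2, 4 and 2 under the same settings, and it lay between 1 and 2 when single arrays were left out. The rows passing in L-428 were 892 of 20546, against 1614 after quantile normalization, 498 after median centring, 2657 with array weights and 1984 without both arrays. In L-1236 they were 1981, against 3063 and 8750 with quantile normalization and array weights. For the difference they were 1061, against 1865, 599, 4538 and 1897 under the 4 settings, and 676 when every row was tested. The estimation of array weights did not reach its convergence tolerance. Leaving out single arrays gave 463 to 1307 rows in L-428, with the fewest without replicates 1, 2 or 3 of L-428 tGFP/EBF1 (509, 525 and 463). It gave 1294 to 2898 in L-1236, with the fewest without replicate 2 of L-1236 tGFP, and 672 to 1457 for the difference, with 672 without replicate 1 of L-428 tGFP/EBF1 and 698 without replicate 2 of L-1236 tGFP. The cause of these shifts was not tested. Replicate numbers were not shown to pair samples: same-numbered arrays of a line had deviations correlated between -0.21 and 0.283, and 5 of 12 arrays correlated best with their own number. With the replicate block, 1, 3, 1 and 5 members passed in the 4 comparisons, as without it. SESN1 was not in the fit without dim rows.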

Other observations

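Members were also compared with each other over the 12 arrays after each line's mean was taken off. Of 28 pairs, 16 had a positive and 12 a negative Pearson coefficient, given here as descriptions over arrays that share their treatment. CDKN1A and DDB2 ran closest together (r = 0.845), followed by MDM2 and RRM2B (r = 0.645). MDM2 ran opposite to BBC3 (r = -0.667) and to CDKN1A (r = -0.626), and ZMAT3 opposite to RRM2B (r = -0.628). Neither MDM2 nor BBC3 had an EBF1 change that passed in the reported fit. On replicate 3 of L-428 tGFP, MDM2 was the lowest (10.66) and BBC3 the highest (8.04) of its group. The same held on replicate 1 of L-1236 tGFP/EBF1 (9.17 and 8.10). These are the arrays that stand apart, and the coefficients were not recomputed without them.

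The further p53 targets were also compared between the control cells of the lines, where many of all rows differed. Of 32, 14 were higher and 5 lower in L-428 tGFP than in L-1236 tGFP, where 26.1% of all rows were higher and 21.7% lower. These include GDF15, which was lower by 2.85 on the log2 scale in L-428 (7.06 ± 0.071 in L-428 tGFP and 9.91 ± 0.11 in L-1236 tGFP; limma, adjusted p = 4.4e-16), and FUCA1, which was 1.87 higher (10.61 ± 0.14 and 8.74 ± 0.083; limma, adjusted p = 5.82e-14). CD82 was lower by 1.39 in L-428 tGFP (limma, adjusted p = 5.66e-12). Without both arrays that stand apart, 14 of the 32 were higher and 6 lower (29.4% and 26.5% of all rows).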
